A study of Mus musculus with 5 samples.

Results

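The ATF4 amino acid response genes are a set of 10 genes, namely Atf4, Asns, Psat1, Phgdh, Shmt2, Mthfd2, Trib3, Sesn2, Slc7a5 and Slc3a2. They were taken by symbol from a table of read counts for 24527 mouse genes, and all 10 had an entry. Counts came from bulk RNA-sequencing of 5 samples of prostate tumor tissue, 3 from castrated and 2 from intact mice, and the question was which transcripts differ after castration. All mice carried the genotype labelled hHGFtg-hMETtg-BCAT-PBCre (TripleTg), which joins a human HGF transgene active throughout the body, a transgene for its human receptor MET and a stabilized β-catenin. The MET and β-catenin alleles are switched on by Cre, which the probasin promoter drives, so that they act in prostate epithelium. Castration was performed at 4 months, and castrated and intact mice were analyzed at 8 months of age on a mixed C57BL/6 and C3H SCID background. Libraries were made from total RNA after removal of ribosomal RNA. The castrated libraries held 28015507, 18951782 and 20492061 counts (replicates 1, 2 and 3) and the intact libraries 21560355 and 22853501 (replicates 1 and 2), and values below follow this order.

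ATF4 is a basic leucine zipper transcription factor that is made when cells run short of amino acids or face other stress. Kinases such as GCN2 and PERK then phosphorylate the initiation factor eIF2α, which slows most translation but raises that of the Atf4 message through upstream reading frames. ATF4 switches on genes for making and importing amino acids and for charging tRNAs, and growth signals through mTORC1 also raise it. Since ATF4 is controlled at translation, the level of its message need not follow its activity.

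Many ATF4 targets carry a C/EBP-ATF response element near their start. The core of this element, TGATGNAA and its reverse complement TTNCATCA, was searched for on both strands in RefSeq promoter sequences (build GRCm38.p6) that run from 250 bases before to 50 bases after the annotated start. Sequences were found for 9 of the 10 genes, all but Slc7a5. The letters were present in 2 of these 9 genes (22.2%), Asns and Trib3, against 4.51% of 27025 genes in all. The 30 bases around each match are shown 5′ to 3′ on the strand of the gene, with the match in capitals.
Asns: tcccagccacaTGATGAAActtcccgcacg
Trib3: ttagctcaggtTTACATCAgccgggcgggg
The Asns window lies at chr6:7693214-7693243 on the minus strand, and its match begins 23 bases before the start. The Trib3 window lies at chr2:152344028-152344057 on the minus strand, and its match begins at base 15 of the transcript. A second spelling that leaves the third letter open and sets the sixth to C, TGNTGCAA (reverse complement TTGCANCA), was added after values had been seen and overlaps with the first wherever the letters read TGATGCAA. It was present in 3 of the 9 genes (33.3%), against 3.72% of all genes, and its matches there lay apart from those above.
Psat1: acgcgggtggcTGGTGCAAtcccctgctct
Trib3: cgggtcacagaTGGTGCAAtcccgggccgc
Sesn2: catgcaaaagtTTGCAGCAtctgtgcgagg
These windows lie at chr19:15925177-15925206, chr2:152344075-152344104 and chr4:132510656-132510685, all on the minus strand, with matches that begin 136, 33 and 218 bases before the start. A match describes the letters only, and binding was not measured.

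The libraries differed in ways that the groups do not explain. Intact replicate 2 stood apart by a secretory prostate transcript. Its CPM (counts scaled to the library total) was 1268 for Tgm4, a prostatic transglutaminase. In the other 4 samples the CPM of Tgm4 lay between 0.0488 and 0.428. Hoxb13, a prostate transcription factor, had a CPM of 5.18, 20.3 and 25.96 in castrated against 3.57 and 66.6 in intact samples. Pbsn, the gene of the probasin promoter, reached a CPM of 4.90 in intact replicate 2 and at most 0.464 elsewhere. Msmb, another secretory marker, had 0 counts in all 5 samples, and the summed CPM of the 4 luminal markers Tgm4, Msmb, Pbsn and Hoxb13 was at most 26.3 in the other 4 samples, against 1339 in intact replicate 2, nearly all of it from Tgm4. Krt8, a keratin of luminal cells, was lowest in intact replicate 2, with a CPM of 623 against 764 to 1195 in the other samples. Epithelial genes were abundant throughout, with a summed CPM over Epcam, Krt8, Krt18, Krt19 and Cdh1 of 3650, 3373 and 4141 in castrated against 5305 and 3177 in intact samples. Results for the 10 genes are therefore given with and without each intact sample. With the intact group reduced to a lone sample, that sample was assumed to vary like the castrated samples.

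All 10 genes passed the filter of a CPM above 1 in at least 2 samples, which 14612 genes passed. For the group comparison, edgeR's quasi-likelihood test was fitted over these 14612 genes and its p was adjusted over all of them by the Benjamini-Hochberg method. When an adjusted p under 0.05 was required together with an absolute log2 fold change above 1, 0 of the 10 genes and 0 of all genes (0%) were called by edgeR. DESeq2 called 989 genes and edgeR's likelihood ratio test 369 at these thresholds, with 0 of the 10 genes among them. At an unadjusted p under 0.05 with the same fold change, 1596 of all genes (10.9%) and 1 of the 10 genes, Sesn2, differed. At that p without regard to fold change the share was 15.0% of all genes, and 2 of the 10 genes, Sesn2 and Slc7a5. The median log2 fold change was -0.28 over the 10 genes and -0.03 over all genes tested. Without intact replicate 1 the median over the 10 genes became 0.26, and without intact replicate 2 it became -0.57, so the direction of the list as a whole turned on which intact sample was used. In bulk tissue, fewer cells of a type and less RNA per cell cannot be told apart.

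**Figure D1:**
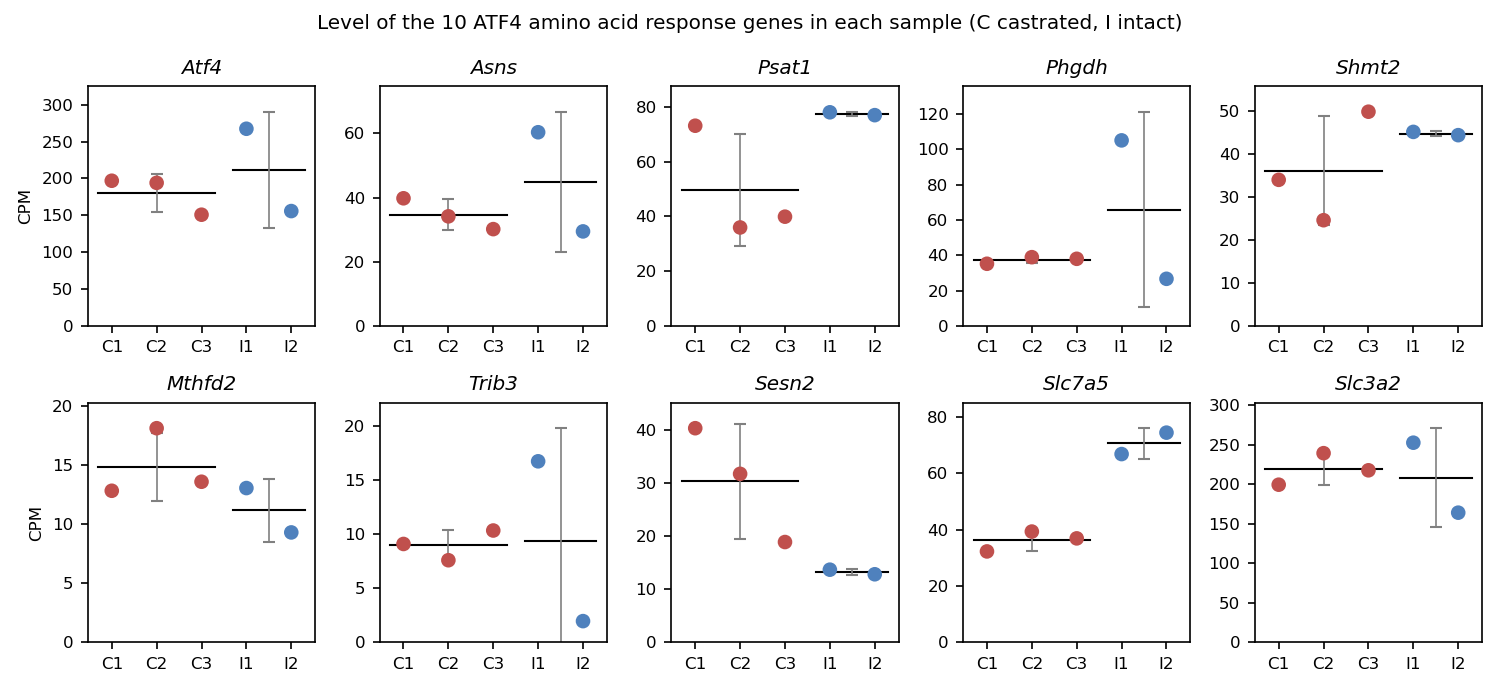
CPM of each of the 10 genes in the 3 castrated (red) and 2 intact (blue) samples, with the group mean as a black line and the SD as a gray bar (the lower end of the intact Trib3 bar falls below 0 and is not drawn). Slc7a5 is lower and Sesn2 higher in every castrated sample, while Atf4, Asns, Phgdh and Trib3 have the largest ratios between the 2 intact samples.

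Atf4, the transcription factor of the set, lies on chromosome 15 from 80255184 to 80257545 on the plus strand, and the other 9 genes lie on the minus strand (mm10, as are all gene coordinates here). Its CPM was 197, 194 and 151 in castrated against 267 and 156 in intact samples. Castrated replicates 1 and 2 lay between the intact samples and castrated replicate 3 just under both, so the groups overlapped. Mean CPM was 181 ± 25.8 (SD) over the 3 castrated and 212 ± 78.9 (SD) over the 2 intact samples. Atf4 had a log2 fold change of -0.23 (SE, the standard error, 0.27, edgeR adjusted p = 0.709). It was 0.14 without intact replicate 1 and -0.52 without intact replicate 2.

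Asns, which makes asparagine from aspartate and glutamine and is a standard reporter of ATF4, lies on chromosome 6 from 7675165 to 7693209. Its CPM was 39.8, 34.1 and 30.2 in castrated samples against 60.3 and 29.4 in intact samples. Intact replicate 1 was above and intact replicate 2 below every castrated sample. It had a log2 fold change of -0.37 (SE 0.32, edgeR adjusted p = 0.612), and it was 0.16 without intact replicate 1 and -0.75 without intact replicate 2. Asns and Atf4 had similar patterns across the samples. The ratio of Asns TPM to Atf4 TPM (a level that corrects for gene length) was 0.179, 0.156 and 0.177 in castrated against 0.200 and 0.168 in intact samples.

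Phgdh and Psat1 encode the first and the second enzyme of serine synthesis from the glycolytic intermediate 3-phosphoglycerate. Phgdh lies on chromosome 3 from 98313171 to 98339969. Its CPM was 35.2, 38.9 and 37.97 in castrated samples against 105 and 26.6 in intact samples. The castrated samples were close together and sat between the intact samples, which differed by 3.94-fold. Phgdh had a log2 fold change of -0.80 (SE 0.52, edgeR adjusted p = 0.505), 0.42 without intact replicate 1 and -1.44 without intact replicate 2. Counts of Phgdh are uncertain, because 9 other mouse genes, all processed pseudogenes, have transcripts at least 95% identical to it over 200 bases or more, whereas none was found for the other 9 genes of the set.

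Psat1 lies on chromosome 19 from 15905123 to 15925059 and did not share the spread of Phgdh. Its CPM was 73.1, 35.9 and 39.9 in castrated samples against 78.0 and 76.9 in intact samples. All castrated samples were below both intact samples, castrated replicate 1 by little and castrated replicates 2 and 3 by more. Psat1 had a log2 fold change of -0.67 (SE 0.34, unadjusted p = 0.0997, edgeR adjusted p = 0.400). Castrated replicate 1 bore on this value, as the log2 fold change was -1.04 without it, with an unadjusted p of 0.00601 from the same edgeR test. Without castrated replicates 2 and 3 it was -0.49 and -0.53, and without intact replicates 1 and 2 it was -0.71 and -0.61, with an unadjusted p of 0.180 to 0.235 in these 4 fits of edgeR.

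Shmt2 and Mthfd2 carry serine-derived carbon through the mitochondrial folate pathway. Shmt2, on chromosome 10 from 127517123 to 127522444, splits serine into glycine and a folate-bound carbon. Its CPM was 34.0, 24.6 and 49.8 in castrated samples against 45.1 and 44.4 in intact samples. Castrated replicate 3 was highest and castrated replicate 2 lowest, so the intact samples fell inside the castrated range. Shmt2 had a log2 fold change of -0.33 (SE 0.33, edgeR adjusted p = 0.664), which was -0.37 without intact replicate 1 and -0.28 without intact replicate 2. It moved more with the castrated samples, to -0.12 without castrated replicate 2 and -0.63 without castrated replicate 3. The gene overlaps Ndufa4l2 on the opposite strand, which had a CPM of 2.01 to 7.24. Without strand, reads of the overlap cannot be assigned to either gene.

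Mthfd2, on chromosome 6 from 83305704 to 83317604, oxidizes the folate-bound carbon in mitochondria and is scarce in most adult tissue. Its CPM was 12.9, 18.2 and 13.6 in castrated samples against 13.1 and 9.32 in intact samples. Castrated replicate 1 lay just under intact replicate 1, so the groups overlapped. Mthfd2 had a log2 fold change of 0.40 (SE 0.32, edgeR adjusted p = 0.587), which was 0.61 without intact replicate 1 and 0.24 without intact replicate 2. Its paralog Mthfd2l was lower in every castrated sample, with a CPM of 14.7, 12.2 and 9.56 in castrated and 28.8 and 16.8 in intact samples. The ratio of Mthfd2 TPM to Mthfd2l TPM was 0.948, 1.61 and 1.54 in castrated samples against 0.493 and 0.603 in intact samples, with no overlap. For Shmt2 TPM over that of its cytosolic paralog Shmt1 the groups overlapped, with 1.78, 0.843 and 1.35 in castrated against 0.989 and 0.769 in intact samples. The ratios given for Asns, Mthfd2, Shmt2 and the LAT1 chains were chosen after their values were seen.

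Slc7a5 and Slc3a2 encode the light and the heavy chain of LAT1, a transporter that brings leucine and other large neutral amino acids into the cell. The light chain carries the amino acids, and the heavy chain, also known as CD98, brings the light chain to the membrane and serves several other light chains. Slc7a5 lies on chromosome 8 from 121881146 to 121907686. Its CPM was 32.3, 39.3 and 36.9 in castrated samples against 66.8 and 74.4 in intact samples. Every castrated sample was well below both intact samples, and the spread within each group was small. Mean CPM was 36.2 ± 3.58 (SD) over the 3 castrated and 70.6 ± 5.37 (SD) over the 2 intact samples, 1.95-fold higher in intact samples. Slc7a5 had a log2 fold change of -0.99 (SE 0.21), with an unadjusted p of 0.00428 and an adjusted p of 0.289 from edgeR's quasi-likelihood test, so it missed both the adjusted threshold and, narrowly, the fold change threshold. Across the fits that left out 1 sample each, the log2 fold change of Slc7a5 ranged from -1.11 to -0.84 and its unadjusted p from 0.00693 to 0.0205 (edgeR's quasi-likelihood test). The value was -1.11 without intact replicate 1 and -0.84 without intact replicate 2, the sample with high Tgm4.

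Slc3a2, on chromosome 19 from 8706882 to 8723369, gave another picture than its partner. Its CPM was 199, 239 and 217 in castrated samples against 252 and 164 in intact samples. The castrated samples lay between the intact samples, with a log2 fold change of 0.06 (SE 0.23, edgeR adjusted p = 0.920). It was 0.35 without intact replicate 1 and -0.16 without intact replicate 2. The ratio of Slc7a5 TPM to Slc3a2 TPM was 0.136, 0.138 and 0.143 in castrated samples against 0.223 and 0.382 in intact samples. The castrated ratios were nearly the same, and both intact ratios were higher. The highest was that of intact replicate 2, which also had the lowest Slc3a2.

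**Figure D2:**
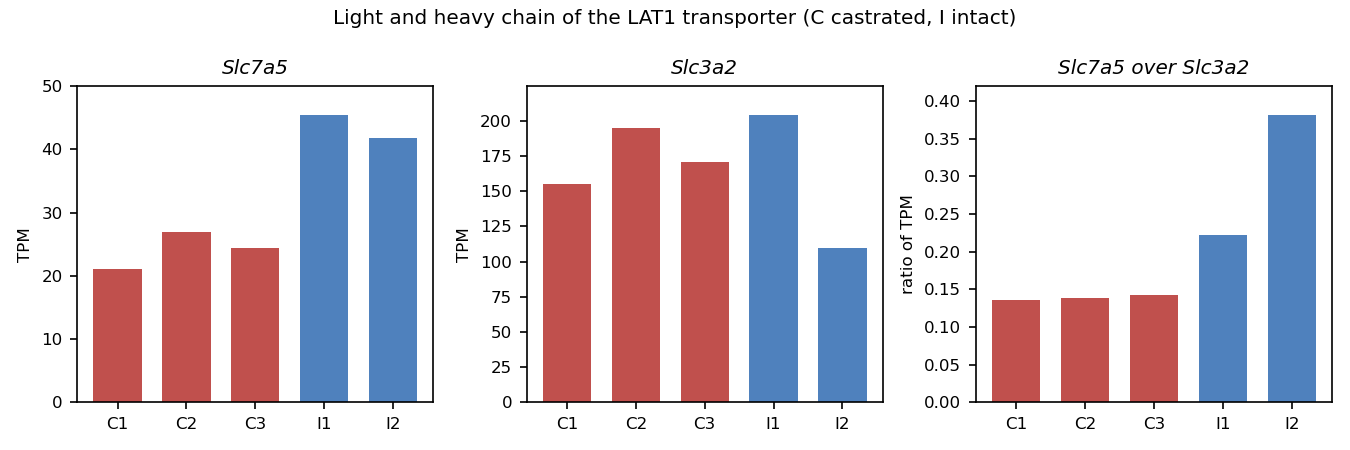
TPM of Slc7a5, TPM of Slc3a2 and the ratio of the 2 values, as bars for each castrated (red) and intact (blue) sample. The ratio is between 0.136 and 0.143 in the castrated samples and 0.223 and 0.382 in the intact samples.

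Trib3 and Sesn2 act as brakes in this response. Trib3, on chromosome 2 from 152337425 to 152344060, encodes a pseudokinase that binds ATF4 and limits its activity. Its CPM was 9.10, 7.60 and 10.3 in castrated samples against 16.7 and 1.97 in intact samples, the latter from 45 counts. The intact samples differed by 8.50-fold and enclosed the castrated samples, and Trib3 had the largest ratio between the intact samples of the 10 genes. The fitted log2 fold change was -0.02 (SE 0.81, edgeR adjusted p = 0.990), 2.12 without intact replicate 1 and -0.85 without intact replicate 2.

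Sesn2, on chromosome 4 from 132492807 to 132510456, encodes a leucine sensor that holds back mTORC1 and is also induced by p53 and oxidative stress in other settings. Its CPM was 40.3, 31.7 and 18.9 in castrated samples against 13.7 and 12.8 in intact samples. All castrated samples were above both intact samples, castrated replicate 1 furthest and castrated replicate 3 least. Mean CPM was 30.3 ± 10.8 (SD) over the 3 castrated and 13.3 ± 0.609 (SD) over the 2 intact samples, 2.29-fold higher in castrated samples. Sesn2 had a log2 fold change of 1.17 (SE 0.38), with an unadjusted p of 0.0244 and an adjusted p of 0.301 from edgeR's quasi-likelihood test. In the fits that left out 1 sample each, the log2 fold change ranged from 0.93 to 1.42, and it was 1.17 without intact replicate 1 and 1.19 without intact replicate 2. Its unadjusted p from edgeR's quasi-likelihood test was 0.00828 without castrated replicate 3, but 0.0655 and 0.0675 without castrated replicates 1 and 2, and 0.0783 and 0.0728 without intact replicates 1 and 2.

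The groups did not overlap for 3 of the 10 genes, with Sesn2 higher and Slc7a5 and Psat1 lower in castrated samples. Over all genes tested the groups did not overlap in 33.1%, 17.8% higher and 15.3% lower, so the count for the set was near the background. The intact samples differed from each other as follows. Intact replicate 1 had the highest CPM of the 5 samples for 6 of the 10 genes, against 25.0% of all genes. Intact replicate 2 had the lowest CPM for 6 of the 10 genes, against 32.2% of all genes. Both held for Asns, Phgdh, Trib3 and Slc3a2, that is 4 of 10, against 1463 of the 14612 genes tested. CPM was higher in intact replicate 1 than in intact replicate 2 for 9 of the 10 genes, against 53.3% of all genes. For 6 of the 10 genes the log2 ratio between intact samples (1 CPM added to each) exceeded the fitted log2 fold change in size. This held for 56.6% of all genes, so the count for the set was near the background.

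**Figure D3:**
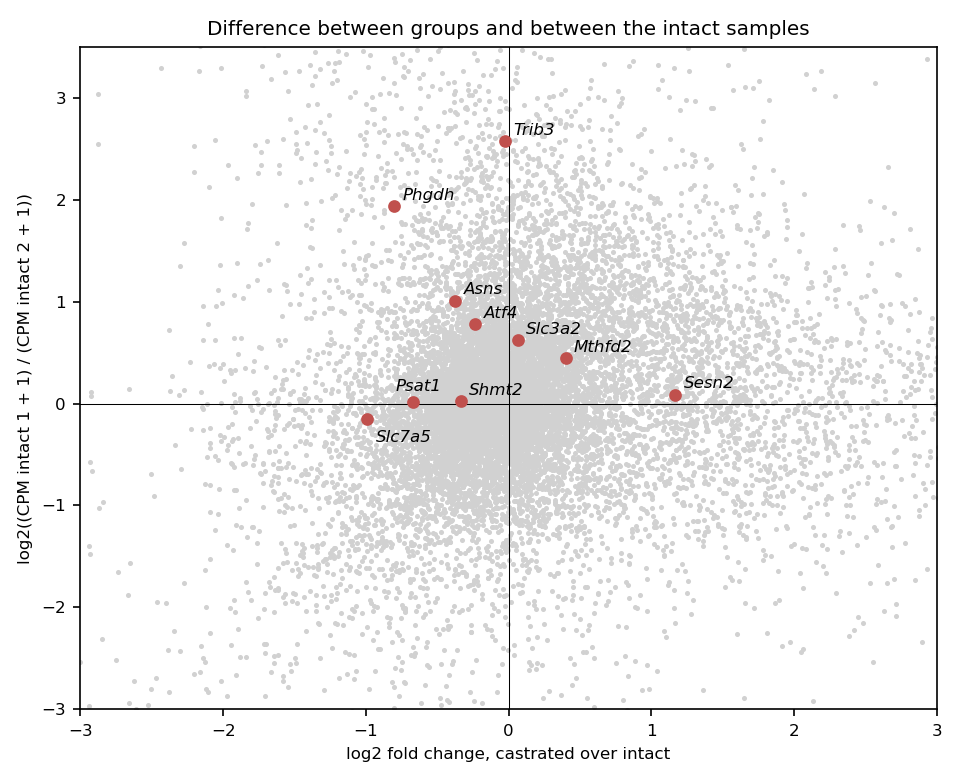
Log2 fold change of castrated over intact samples (horizontal) against the log2 ratio of intact replicate 1 to intact replicate 2, with 1 CPM added to each (vertical), for the 10 genes (red) and all 14612 genes tested (gray, 675 of them beyond the axes). Trib3, Phgdh, Asns and Atf4 lie high on the vertical axis, and Slc7a5 and Sesn2 lie near 0 on it and apart on the horizontal axis.

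The levels of the 10 genes were ordered by mean TPM over all 5 samples. Atf4 was highest with a TPM of 256 ± 74.4 (SD, n = 5), followed by Slc3a2 with 167 ± 37.5 (SD, n = 5), and Atf4 was above Slc3a2 in 5 of 5 samples. Slc3a2 was above Phgdh in 5 of 5 samples. Phgdh (60.8), Psat1 (55.1), Asns (45.7), Shmt2 (39.0) and Slc7a5 (32.0) followed as mean TPM. Within this stretch, neighbors changed places between samples, Phgdh being above Psat1 in 3 of 5 and Psat1 above Asns in 4 of 5 samples, and their ranges overlapped. Sesn2 (20.4), Mthfd2 (15.0) and Trib3 (10.4) had the lowest mean TPM, again with ranges that overlapped. The group means of Slc7a5 and Sesn2 differed in order. Mean TPM was 24.2 for Slc7a5 and 26.8 for Sesn2 in castrated samples, and 43.6 and 10.9 in intact samples. By sample, Slc7a5 was above Sesn2 in 3 of 5. Castrated replicate 3 had the order of the intact samples, with a TPM of 24.4 for Slc7a5 and 16.5 for Sesn2.

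Other genes of the pathway were taken from 7 lists with 80 genes, of which 79 were in the table and 76 passed the filter. Of these 76 genes, 49 had a log2 fold change below 0, as did 52.1% of all genes tested, and the median was -0.21 against -0.03 over all genes tested. After adjustment 0 of the 76 were called by edgeR's quasi-likelihood test. At the unadjusted p and the fold change threshold, 2 were higher in castrated samples, against 7.66% of all genes, and 5 were lower, against 3.26% of all genes. This count of 7 depended on the samples used. Between 1 and 11 genes of the lists passed when 1 sample was left out, with the fewest without castrated replicate 2, where 6.22% of all genes passed, and the most without intact replicate 2, where 10.5% of all genes passed.

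**Figure D4:**
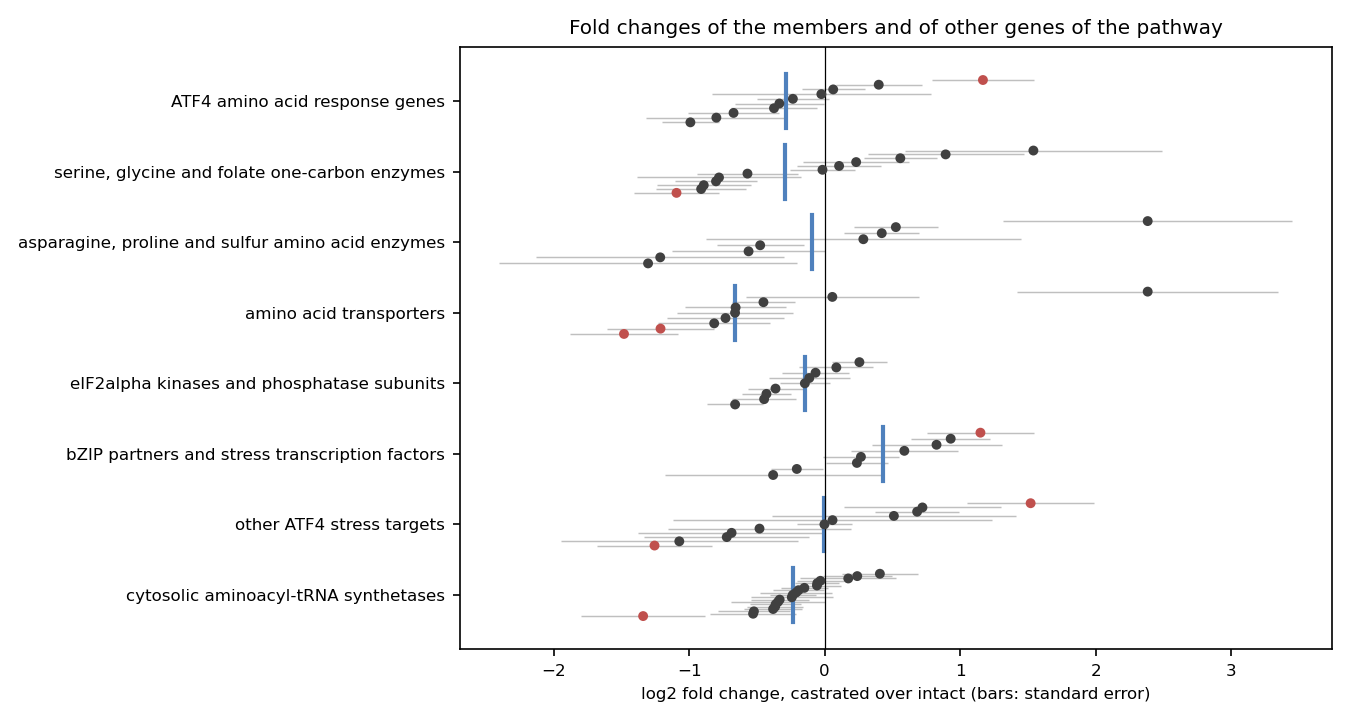
Log2 fold change with its standard error for the 10 genes and for the tested genes of 7 pathway lists, with the median of each list as a blue bar. Red points had an unadjusted p under 0.05 with a log2 fold change beyond 1 in either direction (edgeR's quasi-likelihood test), and the transporter list has the lowest median at -0.66.

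Amino acid transporters had the lowest median of the 7 lists. Of 9 tested, 7 had a log2 fold change below 0, against 52.1% of all genes, the median was -0.66, and 2 were called lower at the unadjusted p, against 3.26% of all genes. Intact replicate 1 had the highest CPM for 7 of the 9. For 3 of the 9 the groups did not overlap, all lower in castrated samples, against 15.3% of all genes. Summed over the whole list, CPM was 1189, 963 and 716 in castrated against 2067 and 1104 in intact samples, so castrated replicate 1 lay above intact replicate 2. Slc7a11 encodes the cystine carrier of system xc-, which shares the heavy chain Slc3a2 with Slc7a5. Its CPM was 76.7, 65.4 and 30.8 in castrated samples against 182 and 137 in intact samples. Every castrated sample was below both intact samples, with a log2 fold change of -1.48 (SE 0.40, unadjusted p = 0.0124, edgeR adjusted p = 0.290). It stayed past the unadjusted thresholds in 4 of the 5 fits that left out 1 sample, and its unadjusted p without intact replicate 1 was 0.0554 from the same edgeR test. The promoter of Slc7a11 holds the letters TGATGNAA at 2 places, at chr3:50443642-50443690 on the minus strand, shown because this was the called transporter that carries them.
Slc7a11: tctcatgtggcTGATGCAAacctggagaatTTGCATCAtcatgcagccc
Slc7a1, an importer of arginine and lysine, had a CPM of 113, 82.3 and 44.7 in castrated samples against 209 and 158 in intact samples. The fitted log2 fold change was -1.21 (SE 0.39, unadjusted p = 0.0251, edgeR adjusted p = 0.301), and in 2 of the 5 fits that left out 1 sample it stayed past the unadjusted thresholds. Slc38a2, a glutamine and alanine importer and the most abundant gene of the list by TPM, had a CPM of 349, 345 and 237 in castrated samples against 755 and 281 in intact samples. As for Phgdh, intact replicate 1 stood far above the rest, and its adjusted p was 0.463 from edgeR's quasi-likelihood test.

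Of 12 serine, glycine and folate enzymes, 7 were lower and 5 higher, and their median log2 fold change was -0.29. Tyms, which makes thymidylate from folate-bound carbon during DNA synthesis, had a CPM of 14.2, 8.07 and 13.2 in castrated samples against 25.7 and 23.9 in intact samples. The fitted log2 fold change was -1.09 (SE 0.32, unadjusted p = 0.0167, edgeR adjusted p = 0.294), and it missed the fold change threshold, at -0.88, without castrated replicate 2. Shmt1, Mthfd1l and Mthfd2l also had an unadjusted p under 0.05 and were lower in every castrated sample, but they missed the fold change threshold, and they are named after their values were seen. With Tyms, 4 of the 12 were lower with an unadjusted p under 0.05 in edgeR, against 15.0% of all genes in either direction, and 4 were lower without overlap, against 15.3%. Their unadjusted p in edgeR stayed under 0.05 in 1, 1 and 2 of the 5 fits that left out 1 sample. Mthfd1l and Mthfd2l had log2 fold changes of -0.40 and -0.53 without intact replicate 1. Aldh1l1, which returns folate-bound carbon to CO2 and is the most abundant gene of the list by TPM, had a CPM of 58.9, 77.8 and 89.7 in castrated samples against 49.2 and 4.03 in intact samples (edgeR adjusted p = 0.482). In these enzymes too the intact samples were far apart.

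Of 8 tested enzymes of asparagine, proline and sulfur amino acid metabolism, 4 were higher and 4 lower, and 0 were called at the unadjusted p of edgeR's quasi-likelihood test, by which 0 were under 0.05, against 10.9% and 15.0% of all genes. Cbs, which starts cysteine synthesis from homocysteine, had the smallest p of the list. Its CPM was 2.86, 7.44 and 27.5 in castrated samples against 1.72 and 2.98 in intact samples, so its mean was set by castrated replicate 3 (edgeR adjusted p = 0.364). Glul, glutamine synthetase, was the most abundant gene of the list by TPM and varied without regard to group. Its CPM was 3463, 565 and 2496 in castrated samples against 317 and 3033 in intact samples.

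The genes upstream of ATF4 had log2 fold changes between -0.66 and 0.26. Of these 9 genes for eIF2α, its kinases, the GCN2 regulators Gcn1 and Impact and phosphatase subunits, 7 were lower. In edgeR's quasi-likelihood test 1 had an unadjusted p under 0.05, against 15.0% of all genes, and 0 also passed the fold change threshold, against 10.9% of all genes. Eif2s1, which encodes eIF2α itself, had the smallest p and the highest TPM of the list. Its CPM was 128, 98.2 and 97.6 in castrated samples against 160 and 174 in intact samples, with a log2 fold change of -0.66 (SE 0.20, unadjusted p = 0.0214, edgeR adjusted p = 0.300). Its unadjusted p stayed under 0.05 in 2 of the 5 edgeR fits that left out 1 sample. The 4 kinases, named after their values were seen, had log2 fold changes of -0.45 for Eif2ak4 (GCN2), -0.36 for Eif2ak2 (PKR), -0.11 for Eif2ak3 (PERK) and 0.26 for Eif2ak1 (HRI).

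Of 8 tested leucine zipper partners of ATF4 and related stress factors, 6 had a log2 fold change above 0, and the median was 0.43. The groups did not overlap for 5 of the 8, all higher in castrated samples, against 17.8% of all genes. Jdp2, a repressor that binds the same class of sites, was the 1 gene of the 8 called higher at the unadjusted p, against 7.66% of all genes. Its CPM was 13.0, 13.8 and 13.5 in castrated samples against 8.26 and 3.85 in intact samples. The fitted log2 fold change was 1.15 (SE 0.39, unadjusted p = 0.0308, edgeR adjusted p = 0.309), and among fits that left out 1 sample it stayed past these thresholds in 1 of 5, that without intact replicate 1. Cebpb, a C/EBP factor that pairs with ATF4 and is named after its values were seen, was higher in every castrated sample, with a CPM of 30.2, 49.0 and 40.9 in castrated against 21.3 and 20.2 in intact samples. Its log2 fold change of 0.93 missed the fold change threshold, and its unadjusted p of 0.0218 in edgeR stayed under 0.05 in 1 of the 5 fits that left out 1 sample. Nupr1, a stress-induced chromatin protein and the most abundant gene of the list by TPM, had a CPM of 188, 257 and 220 in castrated samples against 532 and 58.9 in intact samples. Its intact samples enclosed the castrated samples, as those of Trib3 did.

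Of 11 other tested stress targets, 1 was called higher (Sesn1) and 1 lower (Vegfa) at the unadjusted p, against 7.66% and 3.26% of all genes. Sesn1, a p53-regulated paralog of Sesn2, had a CPM of 24.6, 62.5 and 58.3 in castrated samples against 16.1 and 17.2 in intact samples. The fitted log2 fold change was 1.52 (SE 0.47, unadjusted p = 0.0214, edgeR adjusted p = 0.300). Castrated replicate 1, which had the most Sesn2, had the least Sesn1 of the castrated samples, and the fit without that sample was the only one of 5 in which Sesn1 stayed past the unadjusted thresholds. Sesn3, the third sestrin and the most abundant gene of the list by TPM, had a CPM of 118, 127 and 162 in castrated samples against 83.3 and 345 in intact samples (log2 fold change -0.72, edgeR adjusted p = 0.608). Vegfa, an angiogenic factor that hypoxia also induces, had a CPM of 121, 122 and 66.6 in castrated samples against 345 and 148 in intact samples. Vegfa had a log2 fold change of -1.26 (SE 0.42, unadjusted p = 0.0290, edgeR adjusted p = 0.309), and of -0.59 without intact replicate 1. It stayed past the unadjusted thresholds in 1 of the 5 fits that left out 1 sample.

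Cytosolic aminoacyl-tRNA synthetases, which charge tRNAs and include several ATF4 targets, had a log2 fold change below 0 for 16 of 19 tested genes, against 52.1% of all genes, with a median of -0.24. Of the 19, 1 had an unadjusted p under 0.05 in edgeR, against 15.0% of all genes. For 6 of the 19 the groups did not overlap, all lower in castrated samples, against 15.3% of all genes. Gars, the glycyl-tRNA synthetase, was the 1 gene of the 19 called lower at the unadjusted p, against 3.26% of all genes, and the most abundant by TPM. Its CPM was 126, 127 and 123 in castrated samples against 162 and 448 in intact samples. The castrated samples were nearly the same, and intact replicate 2 stood far above the rest. Gars had a log2 fold change of -1.34 (SE 0.46, unadjusted p = 0.0303, edgeR adjusted p = 0.309), and -0.33 without intact replicate 2. It stayed past the unadjusted thresholds in 1 of the 5 fits that left out 1 sample.

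The letters TGATGNAA were more frequent among these genes than among all promoters, in 15 of 61 genes of the lists with a promoter sequence (24.6%) against 4.51%. Together with Asns and Trib3, 17 genes held them and 16 of these were tested. Their directions were mixed, with 7 higher and 9 lower in castrated samples. At the unadjusted p of edgeR's quasi-likelihood test, 1 was called higher (Jdp2), against 7.66% of all genes, and 2 lower (Slc7a11 and Gars), against 3.26%. The windows of Jdp2 (chr12:85599372-85599401, plus strand) and Gars (chr6:55037960-55037989, plus strand) are shown beside that of Slc7a11 above, since these genes carried the same core and differed in direction.
Jdp2: atagccggggcTGATGCAAcccgtcccgcc
Gars: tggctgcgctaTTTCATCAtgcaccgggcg

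Proliferation, macrophage and smooth muscle markers moved with the groups in every gene listed, and fibroblast markers did so in their sum. Summed CPM of epithelial, prostate luminal, basal, T cell, endothelial and adipocyte markers overlapped between the groups. The part of all these markers in the results on the 10 genes was not tested. Proliferation markers were lower in every castrated sample for 8 of 8 genes, against 15.3% of all genes, with a summed CPM of 77.0, 103 and 128 in castrated samples against 293 and 331 in intact samples. Top2a was the most abundant of them by TPM. Slc7a5, Slc7a11 and Tyms were lower in the same samples. Macrophage markers were higher in every castrated sample for 7 of 7 genes, against 17.8% of all genes, with a summed CPM of 870, 2191 and 1172 in castrated samples and of 477 and 463 in intact samples, and C1qa was the most abundant. Smooth muscle markers were higher in every castrated sample for 6 of 6 genes, against the same 17.8%, with a summed CPM of 383, 659 and 606 in castrated samples and of 205 and 130 in intact samples, and Tagln was the most abundant. Sesn2 was higher in the same 3 samples, but it was highest in castrated replicate 1, which had the lowest macrophage and smooth muscle sums of the 3.

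Adipocyte markers were high in castrated replicates 2 and 3, with a summed CPM of 650 and 608, and low in castrated replicate 1 (54.7) and in intact replicates 1 and 2 (37.1 and 85.2). Fabp4 was the most abundant of the 8 genes, and in both intact samples Cfd and Lep had 0 counts, while Adipoq, Plin1, Cidec and Retn had at most 2. Psat1 was low in the same castrated replicates 2 and 3. Slc7a5 was low in all 3 castrated samples, with or without high adipocyte markers. T cell markers had a summed CPM of at most 43.2. The summed CPM of 4 basal markers was highest in castrated replicate 3 at 853, against 661 in intact replicate 2. Krt15 was highest in castrated replicate 3 with a CPM of 374, but Krt5, Krt14 and Trp63 were highest in intact replicate 2. Fibroblast markers had summed CPMs of 3181, 4376 and 6132 in castrated and 3027 and 1552 in intact samples, without overlap. Of these 5 genes, 3 (Dcn, Lum and Pdgfra) were higher in every castrated sample, against 17.8% of all genes. Col1a1 and Col1a2 overlapped between the groups. Endothelial markers had summed CPMs of 354, 221 and 267 in castrated and 384 and 123 in intact samples. Their sum was highest in intact replicate 1 and lowest in intact replicate 2, as Asns, Phgdh and Trib3 were. All 5 endothelial markers were lowest in intact replicate 2, but only 1, Cdh5 (CPM 235), was highest in intact replicate 1. Pecam1, Kdr, Tek and Emcn were highest in castrated replicate 1. The summed epithelial CPM had the same extremes as the endothelial sum. Of the 5 epithelial markers, 4 were highest in intact replicate 1, all but Krt19. Only 2 of them, Epcam and Krt8, were lowest in intact replicate 2. Whether a larger share of epithelial or endothelial cells goes with the high values of intact replicate 1 was not tested.

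**Figure D5:**
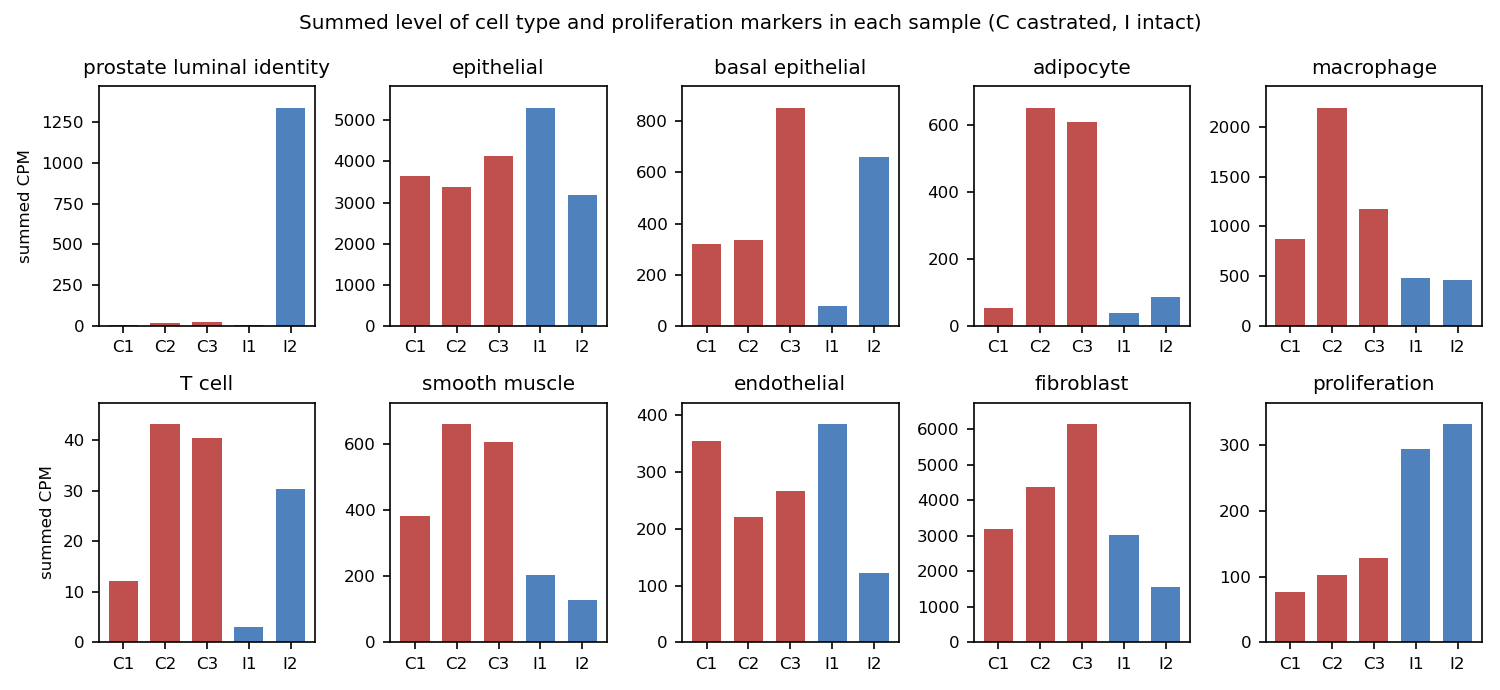
Summed CPM of the markers of 9 cell classes and of proliferation in each castrated (red) and intact (blue) sample. Prostate luminal markers stand at 1339 in intact replicate 2 and at 26.3 or less in the other samples, and proliferation markers are lower in all 3 castrated samples.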

How the data were processed

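RNA was profiled in 3 samples of prostate tumor tissue from castrated and 2 from intact mice. By the submitters' processing notes, the authors used Trimmomatic 0.39, STAR 2.7.9 with mm10 and HTSeq 2.0.2 on paired-end reads, and they deposited raw counts per gene. Whether counting used strand is not given in the sources used here. The deposited gene length in kilobases, another column of the table, was used only for TPM.

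Samples were grouped by their titles, and none was left out. CPM was computed from library totals. Genes were kept where CPM exceeded 1 in 2 or more samples. On counts, edgeR 4.0.16 (quasi-likelihood F-test, TMM, Benjamini-Hochberg adjustment, R 4.3.3) was run. These steps follow the study's methods, except that the study names TPM as input and used an earlier version of edgeR. The common dispersion was 0.238. Replicates differed beyond sampling noise, with a chi-square per gene of 134 or more. The labels give each sample an identifier of its own but do not state separate animals, so p-values measure the spread between these samples. The SE is the absolute log2 fold change over the root of F. The procedure was tested on simulated counts.

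The 10 genes and all lists were chosen with earlier results of these data known. Genes named from a list were those called at the unadjusted p, otherwise that with the smallest p, and the most abundant by TPM. Alternatives were DESeq2, limma, the likelihood ratio test, other scalings and filters, TPM, a replicate block and leaving out each sample. Mars and Trac were not used here, and 1 luminal marker is not reported here. Promoters come from RefSeq, and similar transcripts were searched for in GENCODE M21 with megablast.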

Additional observations from a re-analysis of the deposited data

How the results depend on the processing

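Of 15 alternatives, DESeq2 1.42.0 called 989 genes after adjustment, the likelihood ratio test 369, edgeR's quasi-likelihood test without intact replicate 1 called 1, and the other 12 called 0. In all 15, 0 of the 10 genes were called. Of the 10 genes, Slc7a5 had an adjusted p of 0.00249 with DESeq2, and its adjusted p ranged up to 0.689 over the alternatives. At the unadjusted p, 2 of the 10 (Sesn2 and Slc7a5) passed with limma 3.58.1 (voom), against 7.58% of all genes. The log2 fold change of Trib3 reversed to 0.60 with voom, to 0.54 with log2(TPM + 1) and to 0.48 with the replicate block. With log2(TPM + 1) the median over the 10 genes was -0.13, while that of all genes moved to 0.12, and the unadjusted calls split into 1008 higher and 245 lower, against 1120 and 476.

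With the replicate block, 975 genes (6.67%) passed at the unadjusted p, with 2 of the 10 genes (Sesn2 and Slc7a5), 2 of the pathway lists and a median of -0.15 over the 10. Deviations of same-numbered samples had correlations of 0.15 and -0.05, and the numbers are only names.

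Across fits that left out 1 replicate each, genes called after adjustment ranged from 0 to 1, unadjusted calls from 867 (without castrated replicate 3) to 2570 (without intact replicate 1), calls among the 10 from 1 to 2, pathway calls from 1 to 11, genes of the 10 without overlap from 3 to 8 (8 without intact replicate 1 or 2, where 71.5% and 67.0% of all genes did not overlap) and the median over the 10 from -0.57 to 0.26. The 1 or 2 of the 10 that passed changed with the sample left out. They were Psat1, Slc7a5 and Sesn2 without castrated replicates 1, 2 and 3, Trib3 and Slc7a5 without intact replicate 1, and Phgdh without intact replicate 2. Log2 fold changes crossed 0 for Atf4 (-0.52 to 0.14), Asns (-0.75 to 0.16), Phgdh (-1.44 to 0.42), Trib3 (-0.85 to 2.12) and Slc3a2 (-0.16 to 0.35). The older quasi-likelihood fit was chosen after seeing the data. In 139 of 150 values for single genes, direction and side of the adjusted threshold stayed. The cause of each change was not tested.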

Other observations

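The mean pattern of the 10 genes, as centred log2 CPM, was highest in intact replicate 1 and lowest in intact replicate 2. Among 14472 tested genes outside the lists used, 275 had a Pearson correlation above 0.95 with this pattern over the 5 samples, which share the same libraries. The 5 most alike were Reep1, Nfyb, Lrba, Pank2 and Psmd11, with r from 0.997 to 0.999. The CPM of Reep1 was 15.8, 12.1 and 11.8 in castrated samples, and 39.0 and 5.86 in intact samples. These values are a description of 5 libraries.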
